A study of Mus musculus with 30 samples.

Results

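Chronic lymphocytic leukaemia (CLL) cells and non-leukaemic B cells of aged mice carrying a mutant Ikzf3 gene were compared by RNA-seq. The 9 libraries were chosen by their labels from the 30 samples of the series: 5 of CLL cells, numbered 1, 2, 4, 5 and 6, and 4 of non-CLL B cells, numbered 2, 4, 5 and 6. All came from C57BL/6 mice of 15 to 18 months that carried Ikzf3-L161R in B cells only, so the mutation was shared by both groups and is not what was compared. Libraries 1, 2, 4 and 5 were from heterozygous (Ikzf3 fl/+) mice and both libraries numbered 6 from homozygous (Ikzf3 fl/fl) mice. CLL cells were flow-sorted as B220+CD5+, and B cells were selected with magnetic beads, per the labels' protocols. The sources used here give neither how leukaemic cells were kept out of the non-CLL fraction nor which Cre line drives the allele. The study's design text places the non-CLL cells in the same mice as the CLL cells, so libraries with the same number were read as 1 mouse. CLL 1 has no partner. B cells of 3 aged wild-type mice of the same age are given as levels beside the comparison and were not tested.

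Aiolos, the product of Ikzf3, is a DNA-binding protein of the Ikaros family that regulates mature B cells. Mouse CLL-like disease is an accumulation of CD5-positive B cells and shares surface features with B-1 cells, the self-renewing innate-like B cells that make natural antibody. Marginal zone B cells respond to blood-borne antigen in the spleen, follicular B cells take part in T cell-dependent responses, and T-bet B cells (also called age-associated B cells) accumulate in old mice. Setting the clone against the other B cells of the same animals asks what distinguishes leukaemic cells from cells with the same mutation and age. The groups also differ in how the cells were isolated, by flow sorting or with magnetic beads. Differences due to isolation and to leukaemia cannot be told apart here.

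Expression is given in TPM, a transcript share that is scaled for gene length and library size, so levels can be set side by side between genes. A TPM table does not keep the number of reads, so depth is unknown. Of 22781 genes, 22316 had at least 1 TPM in at least 4 of the 9 libraries and were tested with limma on log2(TPM + 1). Genes with an adjusted p (Benjamini-Hochberg over all genes tested) under 0.05 are called higher or lower in CLL, and the 7718 genes with a mean of at least 20 TPM in either group are described. At the edge of that minimum lay Phc1 (20.0024 TPM in non-CLL cells), just inside, and Mtap1s (19.9978 TPM in non-CLL cells), just outside. Log2 changes are CLL minus non-CLL on the log2(TPM + 1) scale, which understates the change of genes near 0, and SE is their standard error.

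The labels were first set against marker genes. Cd5, the sort marker, was at 36.1, 16.3, 16.8, 17.1 and 23.5 TPM in CLL 1, 2, 4, 5 and 6, and at 10.1, 5.54, 11.2 and 7.39 TPM in non-CLL 2, 4, 5 and 6. Every CLL library lay above every non-CLL library, and wild-type cells had between 0.377 and 1.16 TPM. The log2 change of 1.24 (SE 0.39) missed the threshold (limma, adjusted p = 0.0518). The adjusted p was 0.0158 without CLL 6, 0.125 without CLL 1 and 0.0881 with the mouse as a block. In non-CLL cells Cd5 lay near the level at which olfactory receptor genes, taken as silent, are listed there (medians of 7.16 to 9.24 TPM). Each library's olfactory receptor median was then subtracted, with results below 0 set to 0, as Cd5 was in non-CLL 4 and 6. The change was then 3.26 (limma adjusted p = 0.0495, or 0.0228 over the genes described alone), a size that depends on this floor. All 9 libraries held the B cell gene Cd79b, which encodes a signalling chain of the B cell receptor, at between 1587 and 4322 TPM. Ptprc, which encodes B220, was at 506 ± 188 TPM (SD, n = 5) in CLL and 668 ± 129 TPM (n = 4) in non-CLL cells (log2 change -0.47, limma adjusted p = 0.21). Ikzf3 itself was at 688 ± 325 and 511 ± 122 TPM, with overlapping groups and a log2 change of 0.31 (SE 0.33, limma adjusted p = 0.486).

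Several libraries stood apart. Olfactory receptor genes, which B cells are not known to use, had a median of 1.08 to 2.71 TPM in CLL 1, 2, 4 and 5, but 9.66 TPM in CLL 6 and 7.16 to 9.24 TPM in the non-CLL libraries, so the level at which silent genes are listed moved with the groups. CLL 2 held myeloid RNA, with Lyz2 (lysozyme) at 656 TPM against 6.20 to 45.9 TPM in the other CLL libraries. Non-CLL 6 correlated least with its own group (median Pearson's r over log2 values of 0.827, against 0.899 to 0.908 for the others, across genes that are not independent). Markers of dendritic and NK cells were higher in the non-CLL libraries: Siglech, a receptor of plasmacytoid dendritic cells, was between 137 and 784 TPM there and between 1.32 and 18.1 TPM in CLL. In sums over the lists of markers, 16 dendritic cell genes made up 382 to 1459 TPM in CLL and 867 to 2464 TPM in non-CLL libraries, and 14 NK and innate lymphoid genes 31.5 to 134 TPM and 286 to 1076 TPM. The sum of 22 T cell markers was 334 to 1439 and 740.0 to 1067 TPM, and that of 28 myeloid markers 336 to 7908 and 467 to 951 TPM. The highest dendritic and T cell sums of the CLL libraries were those of CLL 1. No defining marker in these 4 lists was at 0 throughout a group.

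**Figure D1:**
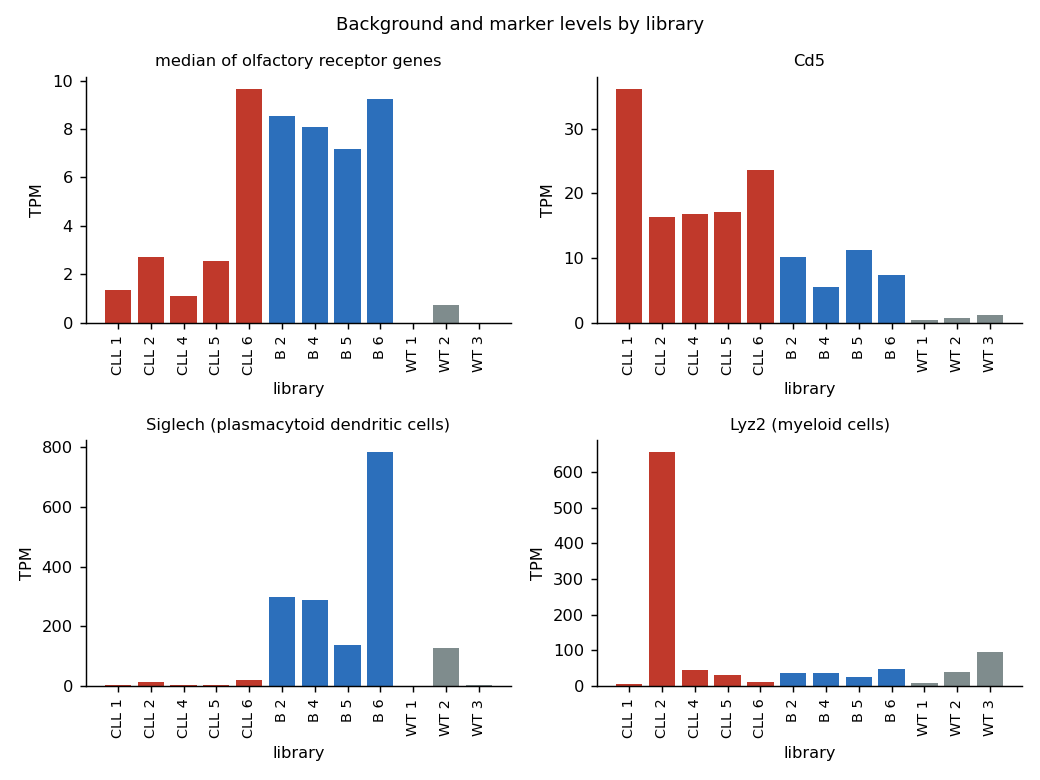
Level in TPM (vertical axes, starting at 0) in each of the 12 aged libraries, for the median of 1106 olfactory receptor genes and for Cd5, Siglech and Lyz2; red bars are CLL, blue bars non-CLL B and grey bars wild-type B cell libraries (B and WT on the axis). CLL 6 shares the olfactory receptor level of the non-CLL libraries, Cd5 is higher in every CLL library, Siglech in every non-CLL library, and Lyz2 stands out in CLL 2.

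CLL cells differed from the non-CLL B cells of the same mice in both directions. Among the 7718 genes described, 163 were called higher (2.11%) and 356 lower (4.61%) in CLL. Over all 22316 genes tested, the counts were 166 higher (0.744%) and 1121 lower (5.02%), most of the lower genes being at low levels. The groups' libraries did not overlap for 255 genes in the higher direction (3.30% of those described) and 536 in the lower (6.94%), and 126 and 270 of the called genes were among them. In the 4 numbered pairs, 156 of the 163 higher genes were higher in every pair and 341 of the 356 lower genes were lower in every pair, a count that the calls themselves favour. The median log2 change of all genes described was -0.09, and that of all 22316 genes tested was -0.77.

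Higher calls were 31.4% of all calls, and this share depended on how the background was treated. With each library's olfactory receptor median subtracted, the counts were 55 higher and 54 lower (50.5% higher), with quantile normalization 69 and 95 (42.1%), with genes kept only at a mean of 20 TPM over the 9 libraries 94 and 126 (42.7%), and with subtraction over the genes described alone, chosen after seeing the data, 158 and 129 (55.1%). Of the 96 named genes called, 42 kept the call with subtraction and 75 with subtraction over the genes described alone, and each kept its direction in both. Subtraction moved the median log2 change of the genes described from -0.09 to 0.08. In 270 of the 356 lower genes the CLL mean was under 20 TPM. CLL 6, whose background is that of the non-CLL libraries, lay below every non-CLL library in 303 of the 356 lower genes and above every one in 149 of the 163 higher genes, counts that the calls, made with CLL 6 in the fit, favour. Counts of higher genes fell to 98 without CLL 1, 98 without CLL 4, 102 without CLL 5, 93 without non-CLL 2, 71 without non-CLL 4 and 86 without non-CLL 6, and rose to 377 without CLL 6. Counts of lower genes were 193 without CLL 1, 181 without CLL 4, 208 without non-CLL 2, 180 without non-CLL 4, 198 without non-CLL 6 and 921 without CLL 6. With only the heterozygous libraries, 263 genes were called higher and 767 lower. The calls shared by every fit that left out 1 library, by the fit with the mouse as a block and by the background-subtracted fit were 28 higher and 40 lower genes.

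**Figure D2:**
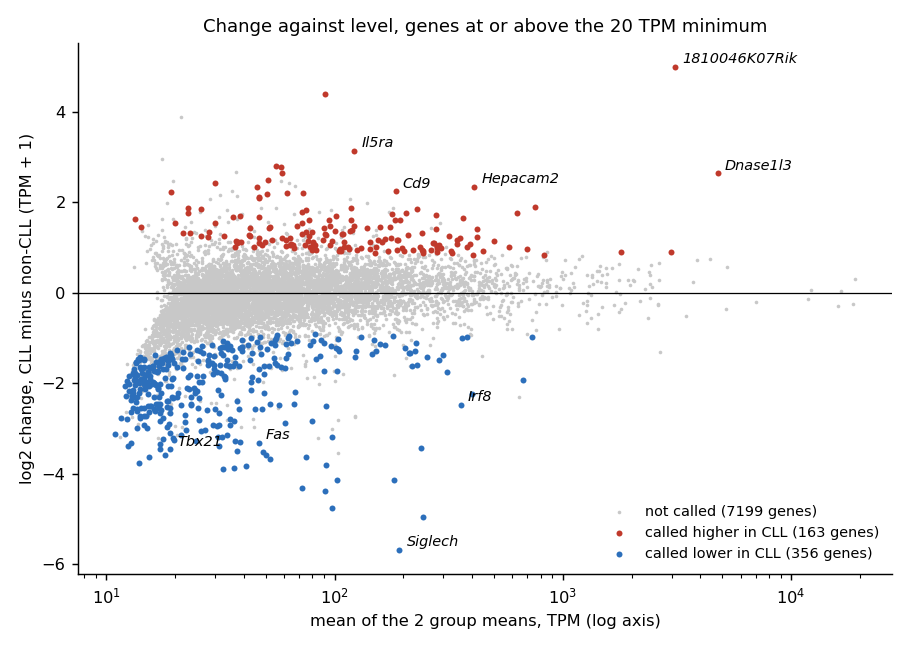
Log2 change (CLL minus non-CLL, vertical axis) against the mean of the group means in TPM (horizontal log axis) for the 7718 genes described; red points are the 163 genes called higher, blue points the 356 called lower and grey points the rest. Blue points crowd at low levels, and 1810046K07Rik and Dnase1l3 stand at the upper right.

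The largest increase was in 1810046K07Rik, a gene on chromosome 9 (51289686 to 51328924 in GRCm38.p6) whose product, since named Pou2af2, is a coactivator of OCT (POU domain) transcription factors known from tuft cells, the chemosensory cells of epithelia. It was at 4399, 6495, 7421, 4664 and 7074 TPM in CLL 1, 2, 4, 5 and 6, and at 103, 414, 211 and 124 TPM in non-CLL 2, 4, 5 and 6. The lowest CLL library was about an order of magnitude above the highest non-CLL library, and wild-type cells had only 11.2 to 14.9 TPM. The means were 6011 ± 1393 TPM (SD, n = 5) and 213 ± 142 TPM (n = 4). The log2 change, taken between means of log2(TPM + 1), was 5.00 (SE 0.33, limma adjusted p = 7.44e-08), or 31.9-fold. Pwp1, a WD repeat protein of the nucleolus, was also called higher, at 155 ± 8.56 against 63.5 ± 11.8 TPM (log2 change 1.29, SE 0.26, limma adjusted p = 0.00508).

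The octamer ATGCAAAT is the motif that OCT factors bind. It was searched on both strands of the windows from 250 bases before to 50 bases after each RefSeq start site (GRCm38.p6), where it was held by 1.74% of 32851 promoters, by 1.34% of the 7070 promoters of genes described, by 6 (3.82%) of 157 promoters of higher genes and by 7 (2.28%) of 307 promoters of lower genes. As a second motif, GGGAA, the core bound by Ikaros family proteins, was found on either strand in 62.7%, 63.6%, 65.6% and 61.9% of the same promoters. Matches of the motifs can share bases, as in Pwp1, where a reverse-strand GGGAA begins on the last base of an octamer. At least 2 octamers were found in 35 promoters (0.107%), and 1810046K07Rik and Pwp1 are among them. Their promoters are shown for that reason, chosen after the matches were seen, 5′ to 3′ on the gene's strand, with octamers in capitals. A match describes the letters and is no evidence of binding.
1810046K07Rik (chr9:51328869-51329168, minus strand): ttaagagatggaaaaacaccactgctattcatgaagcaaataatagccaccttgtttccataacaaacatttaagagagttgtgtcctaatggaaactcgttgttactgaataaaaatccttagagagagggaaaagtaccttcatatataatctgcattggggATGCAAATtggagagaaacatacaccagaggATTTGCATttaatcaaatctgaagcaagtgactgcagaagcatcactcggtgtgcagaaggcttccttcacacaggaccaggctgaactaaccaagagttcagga
Pwp1 (chr10:85871581-85871880, plus strand): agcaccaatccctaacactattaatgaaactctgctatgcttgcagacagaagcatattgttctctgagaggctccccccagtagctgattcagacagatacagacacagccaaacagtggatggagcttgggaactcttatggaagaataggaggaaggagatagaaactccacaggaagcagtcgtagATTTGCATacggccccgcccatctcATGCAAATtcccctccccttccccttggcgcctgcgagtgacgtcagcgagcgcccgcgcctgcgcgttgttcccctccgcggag
The ends of the windows and the strands are those of the RefSeq table.

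Another gene known from tuft cells, Hepacam2, an adhesion protein of the immunoglobulin family, was at 563, 770.1, 786, 679.9 and 609.8 TPM in CLL 1, 2, 4, 5 and 6 and at 123, 142, 107 and 164 TPM in the non-CLL libraries (log2 change 2.35, SE 0.25, limma adjusted p = 1.26e-06). The groups were far apart, and the wild-type range of 106 to 160.2 TPM was that of the non-CLL cells. The list of tuft and epithelial genes, 9 of which were described, had a median log2 change of 0.83. Of its members 2 were called higher and 1 lower, beside 2.11% and 4.61% of all genes described. The lower member was Cdh1 (E-cadherin), at 3.28 ± 2.64 against 24.0 ± 14.3 TPM (limma adjusted p = 0.00622, but 0.0537 after background subtraction). Trpm5, the cation channel of taste and tuft cells, was uneven: it had 21.3, 10.6, 43.6, 5.93 and 81.8 TPM in CLL 1, 2, 4, 5 and 6, between 5.23 and 7.59 TPM in non-CLL cells and at most 0.322 TPM in wild-type cells. The non-CLL values lay near the olfactory receptor medians of those libraries (7.16 to 9.24 TPM). CLL 5 lay among the non-CLL values, and the change missed the threshold (log2 change 1.63, limma adjusted p = 0.0671), but passed without CLL 5 (0.0167). Among the non-CLL values only that of library 5 (7.59 TPM) was above its own library's median, so subtraction brought the others to the floor. The change was then 4.13 (limma adjusted p = 0.0774, or 0.0229 over the genes described alone), a size that depends on this floor.

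Genes for the IL-5 receptor and other B-1 cell markers were among the strongest increases. Il5ra, the ligand-binding chain of the IL-5 receptor that B-1 cells carry, was at 157, 267, 272, 188 and 212 TPM in the CLL libraries and at 17.0, 30.3, 38.6 and 15.1 TPM in the non-CLL libraries. No library of either group came near the other group, and the log2 change was 3.14 (SE 0.30, limma adjusted p = 1.5e-07), or 8.80-fold. Nid1, a basement membrane glycoprotein, was at 103 ± 44.9 against 14.8 ± 5.56 TPM (log2 change 2.66, limma adjusted p = 2.55e-05). Cd9, a tetraspanin of B-1 and marginal zone cells, was at 307 ± 124 against 62.8 ± 17.1 TPM (log2 change 2.24, limma adjusted p = 2.49e-05), with CLL 1 the highest at 527 TPM. Of the 25 B-1 markers described, 5 were called higher and none lower, beside 2.11% and 4.61% of all genes described. The markers' median log2 change was 0.38 against -0.09 over all genes described. As Cd5, on which the cells were sorted, is a B-1 marker too, the gate itself bears on this list. The count of higher markers was 3 without non-CLL 5 and 8 without CLL 6, and 5 were called after background subtraction, Cd5 (0.0495) in place of Cd300lf (0.171).

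Marginal zone markers rose in part. Of 18 described, 6 were called higher and none lower, beside 2.11% and 4.61% of all genes described, and the list's median log2 change was 1.00. Cd36, a scavenger receptor for lipids, was at 95.6, 149, 93.7, 71.0 and 155 TPM in CLL and at 25.8, 21.7, 43.8 and 36.3 TPM in non-CLL cells, with no overlap (log2 change 1.78, SE 0.30, limma adjusted p = 0.000955). Wild-type B cells had as much Cd36 as CLL cells or more, between 90.2 and 346 TPM. Dtx1, a Notch pathway gene, was at 133 ± 60.6 against 45.9 ± 13.1 TPM (log2 change 1.42, limma adjusted p = 0.0156), and 1 CLL library, CLL 4 at 57.6 TPM, fell within the non-CLL range. S1pr3, a sphingosine-1-phosphate receptor of marginal zone cells, was at 88.6 ± 60.9 against 13.6 ± 7.80 TPM, and its call (limma adjusted p = 0.0345) was lost with the mouse as a block (0.0559) and without CLL 1, non-CLL 4, non-CLL 5 or non-CLL 6 (0.0663 to 0.0968). After background subtraction the call of Dtx1 was lost as well (0.126), while Cd36 and Cd9 kept theirs. That left 2 of the 6 calls of the list, and without non-CLL 4 there were 3.

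**Figure D3:**
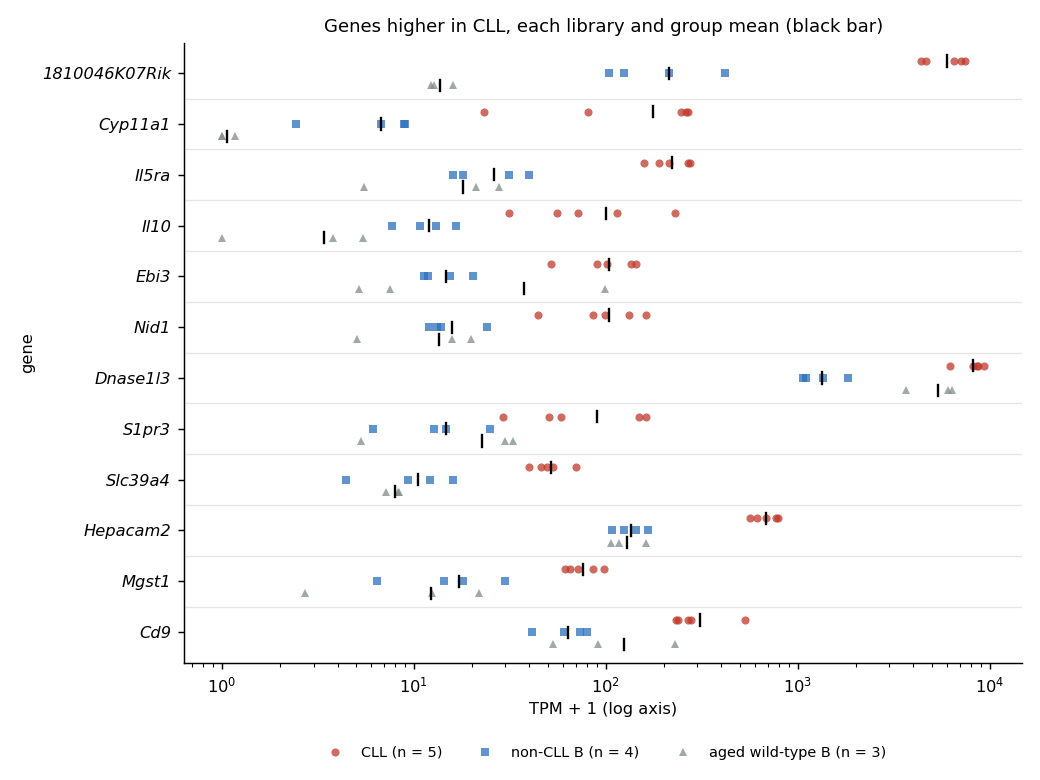
TPM + 1 (horizontal log axis) of the 12 called genes with the largest increases and no overlap between the groups, 1 gene a row; red circles are CLL, blue squares non-CLL B and grey triangles wild-type B cell libraries, and black bars are group means. The red points lie to the right of all blue points in each row, and Dnase1l3, Ebi3 and S1pr3 have wild-type values within the CLL range.

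Il10, Ebi3 and Cd274, which encode secreted or surface inhibitors of immune responses, were higher in CLL. Il10, an anti-inflammatory cytokine that CD5-positive B cells can make, was at 229, 54.7, 30.4, 113 and 70.8 TPM in CLL 1, 2, 4, 5 and 6 and at 15.5, 6.69, 12.1 and 9.76 TPM in the non-CLL libraries (log2 change 2.79, SE 0.47, limma adjusted p = 0.00472). CLL 1 was the highest, and the groups did not overlap. Ebi3, a subunit of IL-27 and IL-35, was at 103 ± 36.6 against 13.7 ± 4.14 TPM (log2 change 2.78, limma adjusted p = 4.38e-06). Cd274, which encodes PD-L1, the ligand of the inhibitory receptor PD-1, was at 102 ± 55.1 against 22.0 ± 12.3 TPM (4.59-fold, limma adjusted p = 0.00343). With the background subtracted, Ebi3 kept its call (adjusted p = 0.0293). The log2 changes of Il10 and Cd274 were then 4.71 and 3.10, with adjusted p of 0.0538 and 0.112 over all genes tested and 0.00449 and 0.0176 over the genes described alone.

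Receptors for growth and survival factors went both ways. Tnfrsf13b, which encodes TACI, a receptor for BAFF and APRIL, was at 273, 613, 629, 840.0 and 443 TPM in CLL and at 203, 229, 150.4 and 109 TPM in non-CLL cells, with no overlap (log2 change 1.65, SE 0.30, limma adjusted p = 0.00275, but 0.0972 after background subtraction). Csf2rb, the signalling chain that the IL-5 receptor shares with those for IL-3 and GM-CSF, was at 434 ± 206 against 123 ± 28.6 TPM (log2 change 1.73, limma adjusted p = 0.001). Its neighbour and near copy Csf2rb2, an IL-3 receptor chain of mice, was lower at 6.65 ± 5.24 against 52.2 ± 28.1 TPM (log2 change -2.93, limma adjusted p = 0.00058). Reads of this pair may have been divided between them, so both values are uncertain, and background subtraction ended both calls (0.0697 and 0.0752). Il7r, the IL-7 receptor chain of T cells, lymphoid progenitors and innate lymphoid cells, was lower (6.36 ± 5.73 against 61.0 ± 37.5 TPM, log2 change -3.14, limma adjusted p = 0.000242). In all, 5 of the 29 cytokines and receptors described were called higher and 5 lower, beside 2.11% and 4.61% of all genes described. The median log2 change of these 29 was -0.45. After background subtraction 2 were higher and 2 lower, and the lower count was 3 without non-CLL 4 and 9 without CLL 6.

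Of 32 genes of B cell receptor signalling described, 3 were called higher and none lower, beside 2.11% and 4.61% of all genes described, with a median log2 change of 0.11. The higher count was 1 without CLL 4, non-CLL 4 or non-CLL 6 and after background subtraction, and 5 without CLL 6. Nfatc1, a transcription factor that calcium signals from the receptor bring to the nucleus, was at 161, 189, 199, 262 and 368 TPM in CLL and at 72.6, 92.9, 93.4 and 70.0 TPM in non-CLL cells, without overlap (log2 change 1.46, SE 0.28, limma adjusted p = 0.00324). Blk, a Src family kinase, was at 499 ± 33.8 against 260.2 ± 86.3 TPM, but its call (limma adjusted p = 0.035) was lost without CLL 4 (0.0708), non-CLL 4 (0.0754) or non-CLL 6 (0.114) and after background subtraction (0.124). Among 23 inhibitors of this pathway 1 was called higher and 2 lower, with a median of 0.12. The lower calls were Cd22, a sialic acid-binding inhibitory receptor, and Lair1, a collagen receptor, and both were lost without CLL 5 (0.0595 and 0.069) and after background subtraction (0.23 and 0.0688, or 0.0968 and 0.00653 over the genes described alone). The higher one was Ptpn22, a phosphatase that restrains antigen receptor signalling, at 447 ± 91.7 against 187 ± 48.3 TPM (log2 change 1.26, limma adjusted p = 0.00724).

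Of 20 immediate early genes described, which follow acute stimulation, 1 was called higher and 2 lower, beside 2.11% and 4.61% of all genes described. The median log2 change of the 20 was -0.45. Myc was higher at 770.3, 187, 225, 389 and 266 TPM against 60.3, 115, 131 and 64.8 TPM (log2 change 1.86, SE 0.37, limma adjusted p = 0.0131), with CLL 1 far above the other libraries. Junb, an AP-1 subunit, was lower at 109 ± 44.7 against 327 ± 80.0 TPM (log2 change -1.63, limma adjusted p = 0.00177), and Ier2 was lower at 171 ± 62.7 against 425 ± 97.3 TPM (log2 change -1.38, limma adjusted p = 0.0087). Wild-type libraries had 26.7 to 130 TPM of Junb and 67.9 to 105 TPM of Ier2, also below every non-CLL library. Their Myc was at 84.7 to 157 TPM, below every CLL library. After background subtraction the changes of Myc, Junb and Ier2 were 1.99, -1.66 and -1.38, with adjusted p of 0.128, 0.087 and 0.124 over all genes tested and 0.0212, 0.0152 and 0.0278 over the genes described alone. Of the 24 genes of ribosome biogenesis, several of them textbook Myc targets, 4 were called higher and none lower, with a median log2 change of 0.62. These 4 calls were lost without non-CLL 6 and after background subtraction, and 1 or 2 were left without CLL 1, 4 or 5 or non-CLL 2 or 4, while there were 8 without CLL 6. None of the 32 cell cycle genes described was called by limma, and their median log2 change was 0.31. The 17 heat shock chaperones likewise had no call and a median of 0.16. CLL 1 stood apart in both stress and early genes. Its 20 listed heat shock genes summed to 21254 TPM, against 7313 to 9725 TPM in the other CLL and 5876 to 8330 TPM in the non-CLL libraries. Its 29 listed immediate early genes summed to 12132 TPM, against 3696 to 6422 TPM and 4614 to 6948 TPM.

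Further increases were in genes of diverse function. Dnase1l3, a secreted nuclease that clears DNA of dying cells, was at 6215, 8180.3, 9367, 8536 and 8722 TPM in CLL and at 1063, 1353, 1099 and 1828 TPM in non-CLL cells (log2 change 2.64, SE 0.25, limma adjusted p = 1.47e-07). The groups were apart, while the wild-type libraries, at 3673, 6335 and 6079 TPM, lay between them or within the CLL range. Slc39a4, a zinc importer, was at 50.6 ± 11.5 against 9.49 ± 4.88 TPM (log2 change 2.42, limma adjusted p = 0.000234). Mgst1, a microsomal glutathione transferase, was at 75.2 ± 15.5 against 16.1 ± 9.70 TPM (log2 change 2.33, limma adjusted p = 0.00026, but 0.114 after background subtraction). Pdia4, a disulfide isomerase of the endoplasmic reticulum, was at 1179 ± 237 against 329 ± 121 TPM (log2 change 1.89, limma adjusted p = 0.000135). Its list of 19 plasma cell and secretory genes had a median of 0.04, with 2 called higher and 1 lower (2.11% and 4.61% over all genes described). Of these, Derl3 lost its call without CLL 1, 2, 4 or 5 or non-CLL 2 or 4 and with the mouse as a block (0.0896), and Dnajb9, the lower one, without CLL 4 or 5 or any of the 4 non-CLL libraries. Ets2, an ETS family factor named here after its values were seen, was at 197, 38.7, 81.1, 45.3 and 70.2 TPM in CLL against a narrow 13.7 to 17.1 TPM in non-CLL cells (log2 change 2.18, limma adjusted p = 0.0013).

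Cyp11a1, the enzyme that starts steroid hormone synthesis from cholesterol, had the next largest increase after 1810046K07Rik but an uneven one. It was at 246, 266, 22.3, 80.1 and 261 TPM in CLL 1, 2, 4, 5 and 6 and at 7.88, 8.0, 5.72 and 1.44 TPM in non-CLL 2, 4, 5 and 6, and wild-type cells had at most 0.171 TPM. The groups did not overlap, though CLL 4 was closer to the non-CLL values than to CLL 1, 2 and 6. Each non-CLL value was below the olfactory receptor median of its library (7.16 to 9.24 TPM). The log2 change of 4.40 (SE 0.84, limma adjusted p = 0.0364) lost its call with the mouse as a block (0.0699) and without CLL 1, 2 or 5 or any of the 4 non-CLL libraries (0.0576 to 0.0925). It kept the call with heterozygous libraries only (0.00295). Background subtraction set every non-CLL value to 0, which removed that group's spread. The change was then 6.95 (limma adjusted p = 0.0192, or 0.000187 over the genes described alone). Its size and the call it kept depend on this floor.

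Genes of the T-bet B cell programme were lower in CLL. Of the 15 described, 8 were called lower (4 after background subtraction) and 1, Il10, higher, beside 4.61% and 2.11% of all genes described. The programme's median log2 change was -2.22. Tbx21, which encodes T-bet itself, was at 2.95, 3.08, 0, 1.75 and 6.16 TPM in CLL 1, 2, 4, 5 and 6 and at 51.6, 28.5, 37.8 and 24.0 TPM in non-CLL 2, 4, 5 and 6 (log2 change -3.47, SE 0.52, limma adjusted p = 0.000234). Every CLL library was far below every non-CLL library, and CLL 6 was the highest of them. Tox, a nuclear factor of chronically stimulated lymphocytes, was at 4.19 ± 2.97 against 45.3 ± 16.8 TPM (log2 change -3.28, limma adjusted p = 0.000148). Stat4, which relays IL-12 signals, was at 4.58 ± 4.23 against 40.3 ± 16.9 TPM (log2 change -3.05, limma adjusted p = 0.000487). Cxcr3, a chemokine receptor that T-bet switches on, was at 3.97 ± 4.22 against 61.2 ± 44.0 TPM (log2 change -3.90, limma adjusted p = 0.00335).

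NK and T cells use these genes too, and markers of NK cells moved in the same direction: Gzma (granzyme A) was at 6.35 ± 3.53 TPM in CLL and 175 ± 161 TPM in non-CLL cells (log2 change -4.39, limma adjusted p = 0.00794), and Ncr1 at 3.49 ± 2.58 and 58.9 ± 62.0 TPM (log2 change -3.39, limma adjusted p = 0.00275). Their part in the change of the T-bet list was not tested. In wild-type B cells 1 and 3, with Gzma at 1.55 and 8.80 TPM and Ncr1 at 0.266 and 3.79 TPM, Tbx21 was at 17.1 and 29.3 TPM, Tox at 24.2 and 132 TPM and Stat4 at 89.7 and 67.7 TPM. Cxcr3 was at 24.6 and 6.35 TPM in the same libraries, below every non-CLL library, and its value in wild-type 3 lay within the CLL range. Wild-type 2, with Gzma at 14.3 and Ncr1 at 2.76 TPM, had Cxcr3 at 218 TPM, above every non-CLL library. In that library Tbx21 was at 52.2, Tox at 308 and Stat4 at 26.8 TPM. The Tbx21, Tox, Stat4 and Cxcr3 calls were kept after background subtraction (adjusted p between 0.0109 and 0.0365). The changes of Gzma and Ncr1 were then -5.27 and -4.27, with adjusted p of 0.0546 and 0.0887 over all genes tested and 0.0045 and 0.0228 over the genes described alone. In bulk RNA, fewer cells of a type and less RNA per cell cannot be told apart.

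**Figure D4:**
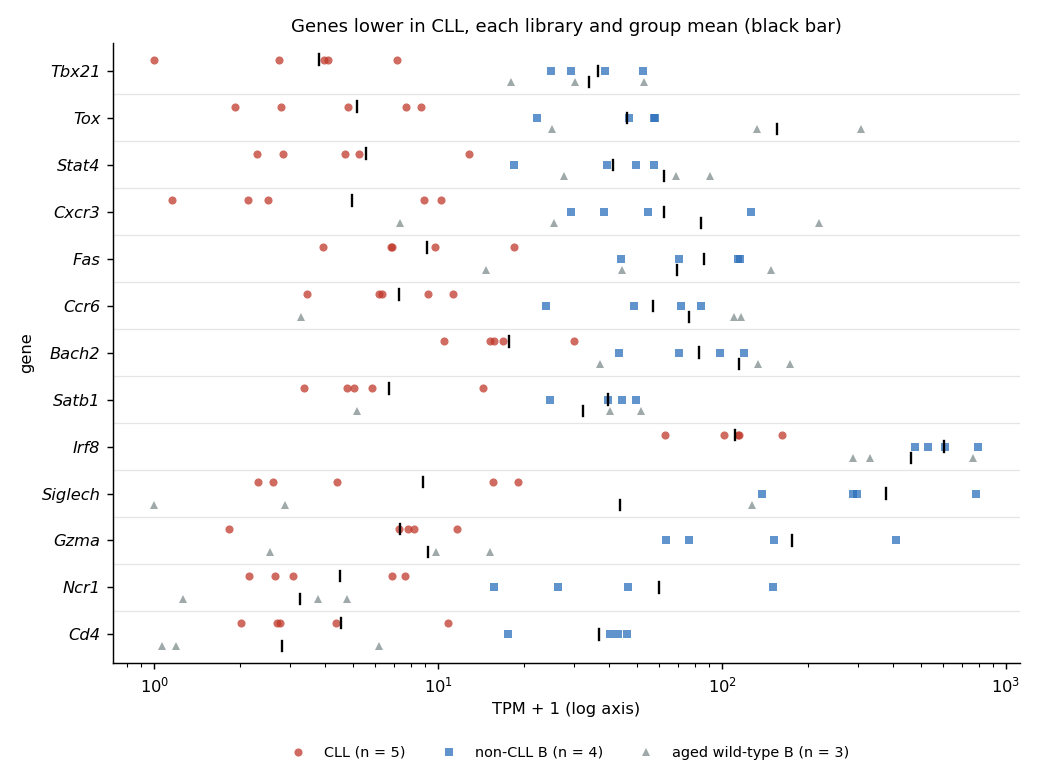
TPM + 1 (horizontal log axis) of 9 genes lower in CLL that B cells are known to express (Tbx21 to Irf8) and 4 markers of other cells (Siglech, Gzma, Ncr1, Cd4); red circles are CLL, blue squares non-CLL B and grey triangles wild-type B cell libraries, and black bars are group means. Red points lie to the left of all blue points in each row. Grey points lie mostly to the right of the red ones in the upper 9 rows, often outside the blue range, and mostly with the red ones in the lower 4. In Cxcr3, Fas, Ccr6 and Satb1 a grey point is not to the right of every red one.

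Follicular B cell genes fell in part. Of 21 described, 5 were called lower and 1 higher, beside 4.61% and 2.11% of all genes described, and the list's median log2 change was -0.47. The lower count was 1 after background subtraction, 2 or 3 without CLL 1, CLL 4, non-CLL 2, non-CLL 4 or non-CLL 5, and 8 without CLL 6. Bach2, a repressor that holds B cells back from plasma cell differentiation, was at 14.7, 14.3, 15.9, 9.51 and 29.2 TPM in CLL and at 69.5, 118, 97.6 and 42.3 TPM in non-CLL cells, without overlap (log2 change -2.22, SE 0.35, limma adjusted p = 0.000375, but 0.0531 after background subtraction, where the change was -2.32, and 0.00653 with subtraction over the genes described alone). Satb1, a chromatin organizer, was at 5.70 ± 4.41 against 38.6 ± 10.7 TPM (log2 change -2.71, limma adjusted p = 0.000487). Fcer2a, which encodes CD23, was at 6.69, 21.5, 14.9, 74.7 and 28.9 TPM in CLL and at 50.8, 319, 417 and 82.2 TPM in non-CLL cells. CLL 5 overlapped the non-CLL range, and the log2 change of -2.76 missed the threshold (limma adjusted p = 0.0702), passing without CLL 6 (0.0156). The member called higher was Ms4a1 (CD20), at 3837 ± 547 against 2102 ± 661 TPM (log2 change 0.90, limma adjusted p = 0.0391), a call lost after background subtraction (0.106) and without CLL 1, 2, 4 or 5 or non-CLL 2, 4 or 6 (0.0525 to 0.104).

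Death receptor, homing and transcription factor genes held further large decreases. Fas, the death receptor that germinal centre and T-bet B cells display, was at 5.80, 8.73, 2.94, 5.86 and 17.5 TPM in CLL and at 115, 43.0, 113 and 69.4 TPM in non-CLL cells (log2 change -3.32, SE 0.41, limma adjusted p = 1.83e-05), and the groups were well apart. It was the only call among 14 BCL2 family and death receptor genes (median 0.07) and among 11 germinal centre genes (median -0.68). Of 31 homing and adhesion genes 2 were called higher and 7 lower, beside 2.11% and 4.61% of all genes described, and the list's median was -0.71. The lower count was 3 after background subtraction and 13 without CLL 6. Ccr6, the receptor for CCL20, was at 6.30 ± 3.01 against 56.2 ± 26.6 TPM (log2 change -2.93, limma adjusted p = 0.000135), and Ccr1, a receptor for inflammatory chemokines, went the other way, at 76.8 ± 20.7 against 16.7 ± 0.667 TPM (log2 change 2.10, limma adjusted p = 8.6e-05).

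Irf8 and Bach2 were the only 2 of the 26 Ikaros family and B cell transcription factor genes called, both lower (4.61% over all genes described), and the list's median was -0.31. Irf8, a factor of B cell and dendritic cell development, was at 101, 112, 161, 113 and 61.7 TPM in CLL 1, 2, 4, 5 and 6 and at 609, 476, 531 and 798 TPM in non-CLL 2, 4, 5 and 6. The groups did not overlap, non-CLL 6 was the highest and CLL 6 the lowest, and the log2 change was -2.48 (SE 0.28, limma adjusted p = 3.08e-06), or 5.59-fold down. Plasmacytoid dendritic cells express Irf8 strongly, and their marker Siglech moved with it; its part was not tested. In wild-type B cells 1 and 3, with Siglech at 0 and 1.89 TPM, Irf8 was at 330.2 and 288 TPM. Irf4, a related factor of plasma cell differentiation that is not among the named genes of the rule, was above every non-CLL library in every CLL library (58.3 to 168 TPM against 45.3 to 56.9 TPM), with a log2 change of 0.92 that missed the threshold (limma adjusted p = 0.0528) and passed it without CLL 5 (0.038) or CLL 6 (0.0355).

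Many interferon response genes were lower. Of 28 described, 13 were called lower and 2 higher, beside 4.61% and 2.11% of all genes described, and the list's median log2 change was -0.93. The lower count was 7 or 8 without CLL 1, CLL 4, non-CLL 2, non-CLL 4 or non-CLL 6, and 1 after background subtraction, and the higher count was 0 in 6 of the 9 fits that left out 1 library and 4 without CLL 6. Stat2, the subunit specific to type I and type III interferon signals, was at 30.3, 58.7, 47.3, 50.6 and 50.9 TPM in CLL and at 113, 125, 122 and 142 TPM in non-CLL cells (log2 change -1.41, SE 0.27, limma adjusted p = 0.00406). Both groups were tight and apart. Mx1, an antiviral GTPase, was at 8.04 ± 4.23 against 30.8 ± 8.38 TPM (log2 change -1.91, limma adjusted p = 0.01). Stat2 kept its call after background subtraction (0.0285), and Mx1 (0.101) did not. Irf7 and Bst2, which plasmacytoid dendritic cells also express strongly, were among the lower members, with Irf7 at 25.1 ± 14.8 against 72.6 ± 21.8 TPM (limma adjusted p = 0.0131) and Bst2 at 18.4 ± 13.2 against 67.9 ± 31.3 TPM (limma adjusted p = 0.0108). Both lost the call after background subtraction (0.259 and 0.158).

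The largest decrease was in a gene of another blood cell type. Siglech was at 1.32, 14.6, 1.61, 3.39 and 18.1 TPM in CLL 1, 2, 4, 5 and 6 and at 298, 288, 137 and 784 TPM in non-CLL 2, 4, 5 and 6 (log2 change -5.69, SE 0.82, limma adjusted p = 0.0152). Of the 13 dendritic cell markers described, 10 were called lower and none higher (median -2.40), and 4 lower after background subtraction. Over all genes described, 4.61% were called lower and 2.11% higher. Among NK and innate lymphoid markers 5 of 7 were lower (median -2.82, 3 without CLL 4 and 1 after background subtraction), and among T cell markers 3 of 8 (median -1.77, 5 without CLL 6), including Cd4 at 3.54 ± 3.63 against 35.8 ± 13.0 TPM (log2 change -3.21, limma adjusted p = 0.000397). Cd3e, a chain of the T cell receptor complex, was low in both groups, at 1.14 to 10.5 TPM in CLL and 5.50 to 15.0 TPM in non-CLL cells. None of the 13 myeloid markers described was called (median 0.08). Ccl5, Ctsl and Lag3 followed the same pattern of low CLL and high non-CLL values: Ccl5, a chemokine of T and NK cells, was at 6.76 ± 3.93 against 70.0 ± 21.8 TPM (limma adjusted p = 1.3e-05), Ctsl, a lysosomal protease, at 6.83 ± 6.11 against 137 ± 95.2 TPM (limma adjusted p = 0.00259), and Lag3, an inhibitory receptor for MHC class II, at 6.95 ± 5.60 against 97.2 ± 56.7 TPM (limma adjusted p = 4.67e-05).

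Some decreases were in genes that wild-type B cells 1 and 3, with few dendritic or NK transcripts, also expressed. Kmo, an enzyme of tryptophan breakdown, was at 7.97, 27, 16.4, 17.4 and 28.1 TPM in CLL, at 153, 154, 136 and 262 TPM in non-CLL cells and at 184 and 133 TPM in those wild-type libraries (log2 change -3.19, SE 0.33, limma adjusted p = 7.19e-07). Hsd11b1, which turns inactive glucocorticoid into its active form, was at 20.5, 66.7, 30.0, 33.4 and 37.6 TPM in CLL, at 725, 199, 301 and 533 TPM in non-CLL cells and at 125 and 249 TPM in the same wild-type libraries (log2 change -3.44, SE 0.37, limma adjusted p = 2.6e-05). Slfn8, a Schlafen family member, was at 19.6 ± 5.23 against 113 ± 30.2 TPM (log2 change -2.46, limma adjusted p = 1.3e-05), with 96.9 and 95.2 TPM in wild-type 1 and 3. All 3 were picked with their values in view, and in each every CLL library lay below every non-CLL and wild-type library. Spry2, an inhibitor of receptor tyrosine kinase and MAPK signalling, was at 13.2 ± 8.84 against 171 ± 79.3 TPM (log2 change -3.82, limma adjusted p = 0.00445, but 0.0531 after background subtraction). It was the only call among 19 MAPK feedback and small GTPase genes (median -0.37), beside 4.61% of all genes described called lower.

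Of the remaining lists, genes linked to human CLL had 4 of 22 members called higher (Il10, Ebi3, Cd274 and Tnfrsf13b, given above) and 1 lower (Lag3), with a median of 0.07. This and the counts that follow stand beside 2.11% higher and 4.61% lower over all genes described. NF-kB subunits and targets had 1 higher and 1 lower of 29 (median -0.19), and Toll-like receptor signalling 1 higher and 2 lower of 19 (median 0.12). The lower NF-kB count was 0 without CLL 1, CLL 4 or non-CLL 2 and 7 without CLL 6, and the higher Toll-like receptor count was 0 without CLL 1, 4 or 5 or any non-CLL library. Glucose uptake and glycolysis had 2 higher and 1 lower of 15 (median 0.35), with Eno3, a muscle-type enolase, at 107 ± 35.7 against 36.1 ± 14.9 TPM (log2 change 1.55, limma adjusted p = 0.00563, but 0.0941 after background subtraction). Of the other calls of that list, Aldoa lost its own without CLL 1, 2, 4 or 5 or non-CLL 2, 4 or 6 and with the mouse as a block (0.0513), and Hif1a, the lower one, without CLL 1, 4 or 5 or any non-CLL library. Sterol synthesis, uptake and export had 1 higher, Cyp11a1, and 1 lower of 15 (median -0.03). The lower one was Pltp, a phospholipid transfer protein, at 8.35 ± 4.25 against 42.5 ± 11.8 TPM (log2 change -2.32, limma adjusted p = 0.00109). Antigen presentation and costimulation had 1 lower of 26 (median -0.06), and none without CLL 1, 2 or 4 or non-CLL 2, 4 or 5. Erythroid and platelet markers, stromal markers and sex-linked genes had 1 gene described each, and none was called.

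**Figure D5:**
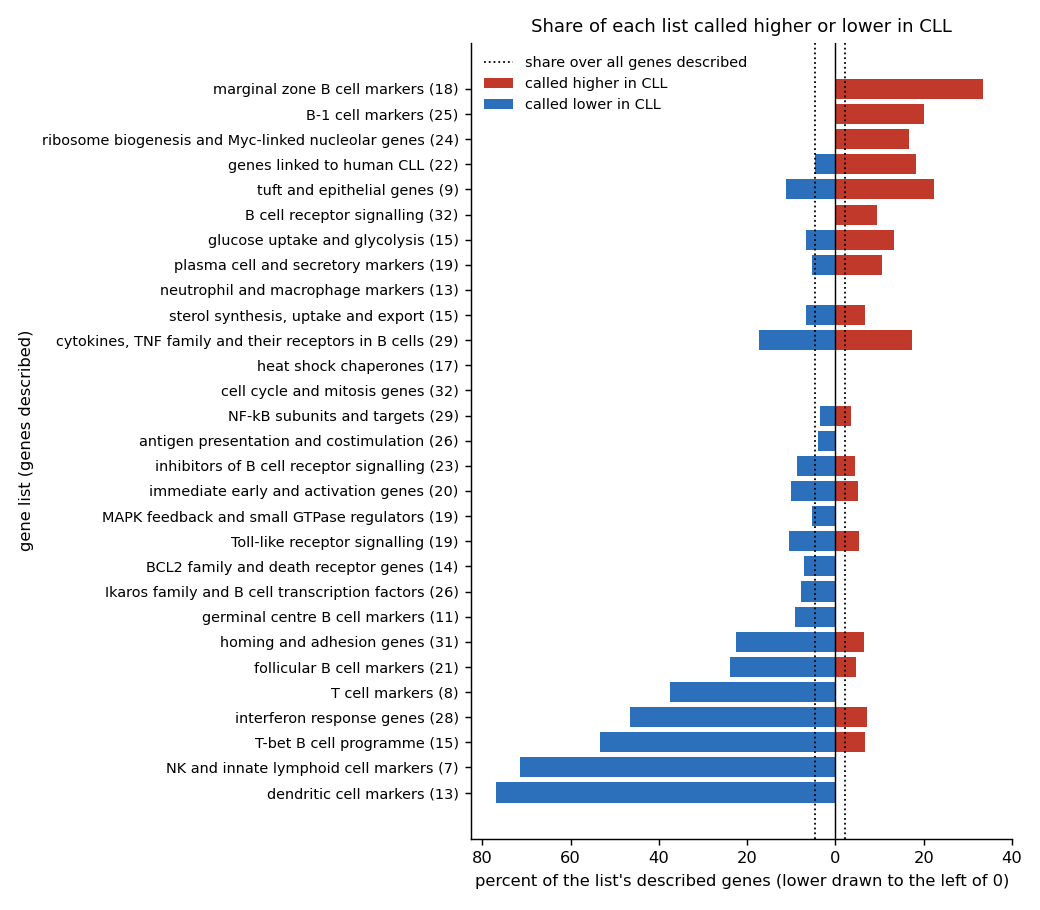
Percent of each list's described genes called higher (red, to the right of 0) or lower (blue, to the left) in CLL, for the lists with at least 5 genes described (number in brackets); dotted lines mark the shares over all genes described, 2.11% higher and 4.61% lower. Marginal zone and B-1 markers stand at the top, and T-bet, interferon, NK and dendritic cell genes at the bottom.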

How the data were processed

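RNA-seq libraries of 5 CLL, 4 non-CLL and 3 aged wild-type B cell samples were used. The authors deposited TPM values per gene (unit per the labels). Bowtie2 2.3.4.1, MACS2 2.2.0, STAR 2.4.0.1 and mm10 are named in the submitters' processing notes without roles; the sources used here give no quantification tool or annotation. Depth is unknown from TPM. From the 22806 genes listed, 25 whose names had been turned into dates were left out. Chromatin and young samples were not used here.

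Groups were compared on log2(TPM + 1) with limma 3.58.1 in R 4.3.3 (trend and robust, two-sided, group as the only term), over genes with at least 1 TPM in at least 4 libraries, a procedure also tested on simulated data. Adjusted p-values are Benjamini-Hochberg values over all genes tested. They measure the spread between these samples; that each library is a separate mouse within its group is read from its number. Same-numbered libraries were taken as the same mouse from the design text; the deviations of such pairs from their group means correlated at 0.04, -0.01, 0.13 and 0.28 (pairs 2, 4, 5 and 6), and for pairs 2 and 4 a differently numbered library correlated better (0.0528 and 0.134). Blocked values are given for Cd5 and for some of the genes whose call the block ended. The block also ended the calls of Cd81, Icosl, Irak3, Nop58 and Vpreb3 (limma adjusted p of 0.0557 to 0.0718).

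Named genes were Ikzf3, Cd5, Ptprc, the 12 largest changes per direction among called, non-overlapping genes, and up to 6 called members of each of 32 lists (93 genes); Hsd11b1, Kmo, Slfn8, Dntt, Fcer2a, Ets2, Pwp1, Irf4 and Trpm5 were added after their values were seen. The members and lists were chosen with earlier results of these data known. Alternatives were other pseudocounts, filters, scalings, variance settings, a mouse term, heterozygous libraries only, and leaving out each library. Background subtraction took each library's olfactory receptor median from all values and set results below 0 to 0. Genes near that median in 1 group therefore lose spread there. Coordinates and promoters are from RefSeq on GRCm38.p6 (the assembly of mm10), where 6993 of the 7718 symbols described were found.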

Additional observations from a re-analysis of the deposited data

Results flagged for a closer look

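In each named gene, the highest or lowest TPM value of a group was flagged when its gap to the nearest other library was a large part of the group's range (Dixon's criterion). Chance flags about 1 in 20 groups, and 24 of 204 were flagged. CLL 6 is the CLL library with the high background and also the only homozygous one, and these cannot be told apart. There, 7 genes lower in CLL were flagged for their highest CLL value: Lag3 (16.6 TPM), Satb1 (13.4 TPM), Stat4 (11.8 TPM), Ccr9 (13.5 TPM), Il7r (16.5 TPM), Cd4 (9.85 TPM) and Klre1 (20.7 TPM). Dntt, the template-independent polymerase of lymphoid progenitors, was flagged there too (12.5 TPM). In CLL 1, Cd9 (527 TPM), Cd300lf (295 TPM), Cd274 (197 TPM) and Ets2 (197 TPM) were highest. In CLL 2, the library with myeloid RNA, 2210020M01Rik (29.7 TPM) and Tcf7l2 (77.2 TPM) were highest. In CLL 4 Vpreb3 (26.4 TPM), and in CLL 5 Icosl (125 TPM) and Tgtp2 (57.6 TPM), stood above the other CLL libraries. Among non-CLL libraries, number 2 was highest in Ptpn22 (259 TPM), number 4 in Nid1 (23.0 TPM) and Ier2 (569.6 TPM), number 5 in Vpreb3 (59.0 TPM) and Nop58 (251 TPM), and number 6 in Ctsl (279 TPM) and Kmo (262 TPM).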

How the results depend on the processing

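Counts of genes called higher and lower were 163 and 356. They were 73 and 152 with a pseudocount of 0.1 in place of 1, 101 and 166 with only genes of at least 20 TPM in either group tested, 94 and 126 with at least 20 TPM over the 9 libraries, 69 and 95 with quantile normalization, 55 and 54 with background subtraction, 22 and 82 with limma without trend and robust estimation (21.2% of these calls higher), 490 and 1110 with library weights, 305 and 632 with a random mouse term, 263 and 767 with heterozygous libraries, and 446 and 868 at an adjusted p under 0.1. With background subtraction over the genes described, chosen after seeing the data, 129 were lower. With the mouse number as a replicate block the counts were 128 and 327, and this pairing ended 9 of the 96 calls of named genes. Leaving out 1 library at a time gave 71 to 377 higher and 180 to 921 lower genes.

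The share of higher genes that were higher in every pair was 95.7%. It was 98.6% with a pseudocount of 0.1, 98.9% at 20 TPM over 9 libraries, 100% without trend and robust estimation, 77.1% with library weights, 99.2% with the replicate block, 88.2% with a random mouse term, 86.7% with heterozygous libraries, and 83.8% to 98.0% leaving out 1 library. For lower genes it was 95.8%, and in the same order 98.7%, 99.2%, 100%, 75.0%, 99.7%, 90.8%, 78.0%, and 81.2% to 99.5%. It was 99.4% with genes of at least 20 TPM in either group, and 100% with quantile normalization and both background subtractions.

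No named gene changed direction under the alternatives in which it was fitted (84 of the 96 called with the filter of 20 TPM over the 9 libraries). Of the 96 named genes called, 42 kept the call after background subtraction and 75 with subtraction over the genes described alone, 62 with quantile normalization, 53 without trend and robust estimation, 71 with a pseudocount of 0.1, 79 with only genes of at least 20 TPM in either group, and all 96 with median-ratio rescaling. The cause was not tested. TPM keeps no depth, so no limit of detection can be given.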

Other observations

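Xist, the RNA that coats the inactive X chromosome of female cells, was at 4.1 TPM in CLL 4 and between 39.8 and 56.4 TPM in the other CLL libraries, while non-CLL 4, numbered as the same mouse, had 61.0 TPM. Ddx3y, a Y-linked gene, was listed at 0 in both libraries numbered 4. It was at most 0.135 TPM in the other mutant libraries and at 17.4 TPM in wild-type library 2. Dntt was at 1.33 to 12.5 TPM in CLL, at 15.4 to 67.0 TPM in non-CLL cells, while of the wild-type libraries number 2 had 31.5 TPM and the others listed 0. Klk1, a tissue kallikrein, had the same spread over the wild-type libraries (0, 58.6 and 0 TPM) and was at 3.80 ± 2.53 TPM in CLL and 68.9 ± 35.6 TPM in non-CLL cells (log2 change -3.89, limma adjusted p = 3.4e-06). Among the 356 genes called lower were 14 microRNA precursor genes, and among the 163 called higher none. How many such genes were described was not counted. No share can therefore be set beside the 4.61% lower and 2.11% higher of all genes described.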
